A study of Mus musculus with 58 samples.

Results

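PU.1 is the ETS-family transcription factor encoded by Spi1, and it binds DNA through a purine-rich sequence with a GGAA core. In blood formation it is a master factor of the myeloid and B cell lineages, and hematopoietic stem cells (HSCs) already use it. At promoters, the stretches of DNA where transcription starts, H3K4me3 marks active start sites and H3K27me3 marks genes held silent by Polycomb.

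PU.1 binding in HSCs of calorically restricted old mice was described here at promoters. The OCR replicate 1 library held 5464 PU.1 peaks, and 797 of them (14.6%, exact binomial 95% CI 13.7 to 15.6) overlapped by at least 1 base one of the 31552 promoter windows on which the H3K4me3 signal of OCR HSCs had been summarised. A promoter window was the 750 bases downstream of an annotated transcription start. Intervals on such shares cover counting error only. The 797 peaks touched 1053 windows of 887 genes, out of 25127 genes with a window. One gene was touched by 708 of the peaks and more than 1 gene by the other 89.

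HSCs were wild type and came from male C57BL/6 mice. Old animals were 24 to 26 months of age and had ad libitum food for life (OAL), 40% caloric restriction for life (OCR), or lifelong restriction followed by 4 weeks of ad libitum refeeding (OCRRF). Young animals were 3 to 4 months of age and had ad libitum food (YAL) or 4 weeks of restriction (YCR), which began at 20% and went on to 40%. HSCs of the diet groups were sorted from bone marrow as lineage-negative Sca-1+ Kit+ cells without CD34 or Flk2 and with CD150. For the Kdr knockdown, aged HSCs were transduced with a GFP lentivirus carrying 1 Kdr shRNA or a scrambled one, transplanted into lethally irradiated female recipients of the CD45.1 strain B6.SJL-Ptprca Pepcb/BoyJ, and recovered as GFP+ HSCs. After the transplant, HSCs were sorted by another gate, as donor lineage-negative Sca-1+ Kit+ cells without CD48 and with CD150. RNA extraction, library kit and sequencer also differed from those of the diet groups, so levels cannot be compared between the knockdown and diet libraries. Knockdown values come from a single hairpin and from cells that had passed through a transplant.

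PU.1 had 2 libraries for each old diet, each from 20000 cells, and both histone marks had 2 OCR libraries from 10000 cells. ATAC-seq had 4 OCR and 2 OCRRF libraries, and RNA-seq had 4 OAL, 4 OCR, 2 OCRRF, 4 YAL, 4 YCR, 4 knockdown and 2 scramble libraries. The OAL PU.1 libraries are those whose titles read OWT, with the treatment given as control. OAL ATAC and histone profiles were not analysed here. The study counts its RNA-seq samples as mice, but the labels tie no library to an animal, so p-values measure the spread between libraries. Replicate 1 PU.1 libraries were labelled with a Thermo antibody and replicate 2 libraries with a batch and no antibody, so antibody and replicate cannot be told apart. RNA totals ran from 17194907 to 44780217 counts and ATAC totals from 15721335 to 19558148, while the PU.1 peak files hold no read totals. The study's reporting summary lists slightly fewer deduplicated reads for the OCR than for the OAL PU.1 libraries, and fewer again for a last pair that it also names OCR. All 8 HSC markers, among them Kit, Ly6a, Slamf1, Procr and Mecom, were present in every group, summing to between 2714 and 4785 CPM, counts scaled to a common library size.

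The strongest promoter peaks sat on a short purine-rich word. The letters searched were GAGGAAG, on both strands, within 100 bases of each peak summit. The next lines print 29 bases around the match nearest the summit, 5′ to 3′ on the strand that carries it, with the match in capitals, from the RefSeq copy of GRCm38, the mm10 build used for the files. First come promoters with some of the highest enrichments in all 6 libraries.

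Actr2 (chr11:20112406-20112434, minus strand, intron): cgcagagaaaaGAGGAAGtgctgtcaggc
Zfp809 (chr9:22225684-22225712, plus strand, outside transcripts): cgctctgaaatGAGGAAGtggggtggatt
Dusp5 (chr19:53528942-53528970, minus strand, non-coding exon): agagcgagaaaGAGGAAGtggcgggcgat
Fgd2 (chr17:29360905-29360933, minus strand, 5′ UTR): gagtgaaaaaaGAGGAAGtggtcccagta
Nckap1l (chr15:103453642-103453670, plus strand, outside transcripts): acaaccagaaaGAGGAAGtctcctctgct

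The next lines show 2 leukocyte signalling promoters and an ETS factor promoter.

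Vav1 (chr17:57279078-57279106, plus strand, outside transcripts): cagtcacagaaGAGGAAGtggtgttgtag
Laptm5 (chr4:130913266-130913294, minus strand, 5′ UTR): agaacaaaaaaGAGGAAGccacaggctgc
Fli1 (chr9:32541451-32541479, plus strand, 5′ UTR): ttgcgatcgggGAGGAAGtcctatctctc

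The last lines show promoters whose RNA differed with diet, described further on. Only promoters with the letters could be printed, so the lines do not show how often such promoters have them. The Rnase6 match lies 50 bases from its summit.

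Sult1a1 (chr7:126676407-126676435, plus strand, 5′ UTR): gtcccaagtggGAGGAAGtggaaacagtg
Plekhg1 (chr10:3740353-3740381, plus strand, 5′ UTR): agagtgggaaaGAGGAAGtggagccaggc
Kif20b (chr19:34922372-34922400, plus strand, 5′ UTR): ttgaaaaccggGAGGAAGtggaattctgc
Rnase6 (chr14:51128920-51128948, minus strand, 5′ UTR): atgtcagcgaaGAGGAAGaacaaactcaa

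PU.1 promoter peaks were narrow, and the rule kept those that reached a start site or the 750 bases downstream of it. Their median width was 290 bases (222 to 606), and the median fold enrichment over background that the peak caller assigned was 7.83 (4.03 to 28.1). Summits lay at a median of 3 bases upstream of the nearest start, with quartiles at 57 bases upstream and 82 bases downstream. Just over 1 summit in 2 (412 of 797, 51.7%) was upstream of the start. Windows began at the start, so a peak that lay wholly upstream was not counted. The upstream side of these distances, which ran from -197 (upstream) to 946 bases (downstream), is therefore cut by the rule. In the GENCODE annotation, 280 summits were in a 5′ UTR, 239 outside any transcript, 193 in an intron, 64 in a non-coding exon, 20 in a coding exon and 1 in a 3′ UTR. The rule asked for 1 shared base, and 390 of the peaks also had their summit inside a window.

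The share of peaks at promoters was alike in the 6 libraries. It was 14.6% in OCR replicate 1, 14.5% of 3852 peaks in OCR replicate 2, 14.7% of 3046 and 14.4% of 2900 in the OAL libraries, and 13.4% of 2817 and 13.7% of 2262 in the OCRRF libraries. The number of promoter peaks therefore followed the number of all peaks, with 448 and 419 in OAL, 797 and 560 in OCR, and 377 and 309 in OCRRF.

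Presence of the 797 peaks in the other libraries was highest in the second OCR library and lowest after refeeding. A peak of OCR replicate 2 overlapped 57.6% of them (95% CI 54.1 to 61.1). OAL replicates 1 and 2 held 49.4% (45.9 to 53.0) and 46.3% (42.8 to 49.8). OCRRF replicates 1 and 2 held 44.0% (40.6 to 47.6) and 37.4% (34.0 to 40.9). This order, OCR, OAL and then OCRRF, is also the order of the libraries' own peak numbers. Peaks away from promoters gave nearly the same shares, 58.1% in OCR replicate 2, 49.5% and 47.4% in OAL, and 45.6% and 38.1% in OCRRF. With 2 libraries against 2, an exact permutation test cannot go below p = 0.333, so diets were not tested against each other for peak presence.

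**Figure D1:**
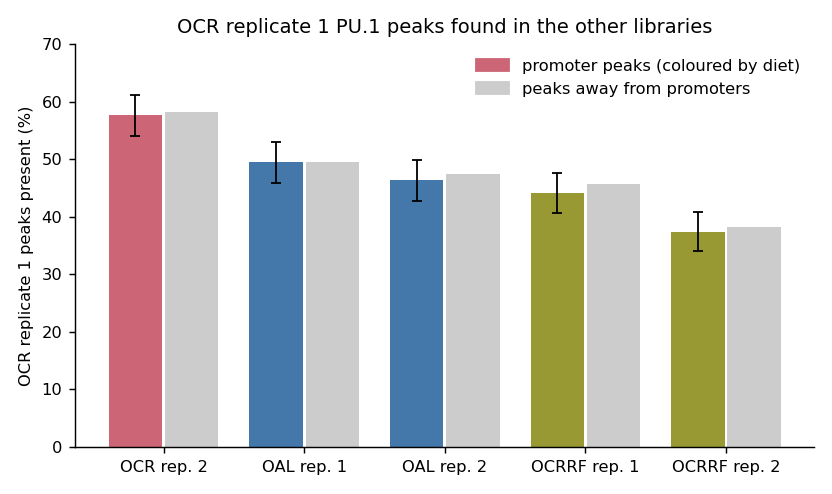
Share of OCR replicate 1 PU.1 peaks (vertical axis, percent) that a peak in each of the 5 other libraries overlapped. Coloured bars are the 797 promoter peaks with exact binomial 95% intervals and grey bars the peaks away from promoters; promoter shares ran from 37.4% in OCRRF replicate 2 to 57.6% in OCR replicate 2, within 2 points of the grey bars.

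Read in the other direction, OCR replicate 1 held most of the promoter peaks of every other library. It overlapped 86.2% and 89.3% of the OAL promoter peaks, 82.5% of those of OCR replicate 2, and 89.4% and 92.9% of those of the OCRRF libraries. Starting from the 560 promoter peaks of OCR replicate 2 gave the same order of diets, with 82.5% in OCR replicate 1, 63.0% and 59.3% in OAL, and 57.3% and 47.3% in OCRRF.

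Of the 797 peaks, 195 were found in all 5 other libraries and 212 in none. A further 128, 95, 90 and 77 were found in 1, 2, 3 and 4 others. Enrichment in OCR replicate 1 rose along this scale, with medians of 6.14, 6.93, 7.26, 8.30, 9.23 and 13.2 for 0 to 5 other libraries. H3K4me3 did not, with medians between 30.9 and 31.8, nor did overlap with an ATAC peak, between 93.5% and 97.9%.

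When promoter peaks of all 6 libraries were merged, 1020 regions resulted, and 205 of them were held by every library. In those 205 the median fold enrichment was 13.0 and 11.6 in OCR, 11.2 and 10.8 in OAL, and 10.6 and 9.51 in OCRRF. Within replicate 1, 166 regions had a higher enrichment in OCR than in OAL and 82 a higher one in OCRRF than in OAL. Within replicate 2, these were 134 and 64 regions. Both OCR libraries and no library of another diet held 62 of the 1020 regions, against 6 for OAL and 0 for OCRRF. Conversely, 29 regions were missing from both OCRRF libraries and present in the other 4, against 5 for OAL and 0 for OCR. These counts follow the peak numbers of the libraries. By the read totals that the study lists, the OCR libraries were not deeper than the OAL libraries, and those of OCRRF cannot be told from the names given. Binding itself was not tested between diets, since the peak files hold no read counts at a common set of regions.

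Actr2, a subunit of the Arp2/3 actin-branching complex, had the highest median enrichment across the 6 libraries, with 25.7 and 22.0 in OAL, 25.8 and 26.1 in OCR, and 26.2 and 23.6 in OCRRF. Zfp809, a KRAB zinc finger protein that represses retroviral DNA, had 23.0 and 22.9 in OAL, 28.1 and 25.3 in OCR, and 22.0 and 23.4 in OCRRF. Dusp5, a nuclear ERK phosphatase, had 23.3 and 22.0 in OAL, 27.3 and 23.0 in OCR, and 20.3 and 19.0 in OCRRF. At Actr2 the 3 diets overlapped, at Zfp809 both OCR values were above the other 4, and at Dusp5 both OCRRF values were below the other 4. Medians over the 205 shared regions also fell from OCR to OAL to OCRRF. Such orders are therefore not shown to be particular to a gene, and they were not tested. Fgd2, an exchange factor for Cdc42, Arpp19, an inhibitor of a mitotic phosphatase, Nckap1l, the hematopoietic subunit of the WAVE actin regulator, the mitotic kinesin gene Kifc1, the myosin light chain gene Mylpf, the prostaglandin reductase gene Ptgr2 and Rgs18, a G protein regulator of platelets, completed the 10 highest. Their medians across the 6 libraries ran from 19.2 for Rgs18 to 22.1 for Fgd2. In 9 of the 10 the letters GAGGAAG lay within 11 bases of the summit, and Rgs18 had none within 100 bases.

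In contrast, the promoter peaks held by both OCR libraries and by no OAL or OCRRF library were weaker than those held by both OCR libraries in general. There were 55 of them, with a median enrichment of 6.93 and 6.50 in the 2 OCR libraries, where all 459 peaks held by both had 9.79 and 8.43. The 10 with the highest enrichment in OCR replicate 1 included A130010J15Rik (11.4 and 6.48 in the 2 OCR libraries), Rwdd2b (11.1 and 6.72), the leukocyte receptor gene Lilra6 (10.9 and 7.11) and the zinc finger gene Zfp317 (10.7 and 8.40). Zeb2os, Gm21057, Mrps18a and Nt5dc1 were also among them. At each of these genes, chosen on replicate 1, replicate 2 gave the lower value.

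The PU.1-type letters were several times as frequent at promoter peaks as at promoters without a peak. GAGGAAG was found in 299 of the 795 peaks searched (37.6%, 95% CI 34.2 to 41.1), with 2 peaks on unplaced scaffolds not searched. It was found in 9.37% of 28726 windows of the same length at start sites without a PU.1 peak in any library, and in 8.70% of the 9683 among them whose H3K4me3 was at or above 21.2, the lower quartile of the windows with a peak. PU.1 peaks away from promoters had the letters in 47.6% of 4646 windows. The share rose with the number of other libraries that held the peak, 28.3%, 32.8%, 34.7%, 36.7%, 40.3% and 51.8% for 0 to 5 others. Where present, the letters lay at a median of 21 bases from the summit, against 18 away from promoters.

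The next shares leave out matches on chromosome 18, which the shares above include. The base after the letters was T in 196 of 293 matches (66.9%, 95% CI 61.2 to 72.3). It was T in 73.7% (63.9 to 82.1) of 99 matches of peaks held by all 5 other libraries. Of 59 matches of peaks held by none, it was T in 57.6% (44.1 to 70.4). This difference was not tested. The base before the letters was A in 51.5%. No share at windows without a PU.1 peak is given for comparison.

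Another word, typical of other ETS factors, CCGGAAG, also searched on both strands, behaved differently. It was found in 19.4% of the promoter peaks (95% CI 16.7 to 22.3) and in 1.96% of PU.1 peaks away from promoters. However, it was found in 17.6% (16.9 to 18.4) of start sites with comparable H3K4me3 and no PU.1 peak, an interval that overlaps that of the peaks. Its share did not follow presence in other libraries, with 17.6% for peaks held by all 5 others and 17.5% for peaks held by none. These windows had a median GC content of 60.2% at promoter peaks, 47.3% at the other PU.1 peaks and 67.2% at the start sites with comparable H3K4me3. A match is a description of the letters and not evidence that a factor was bound through them.

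**Figure D2:**
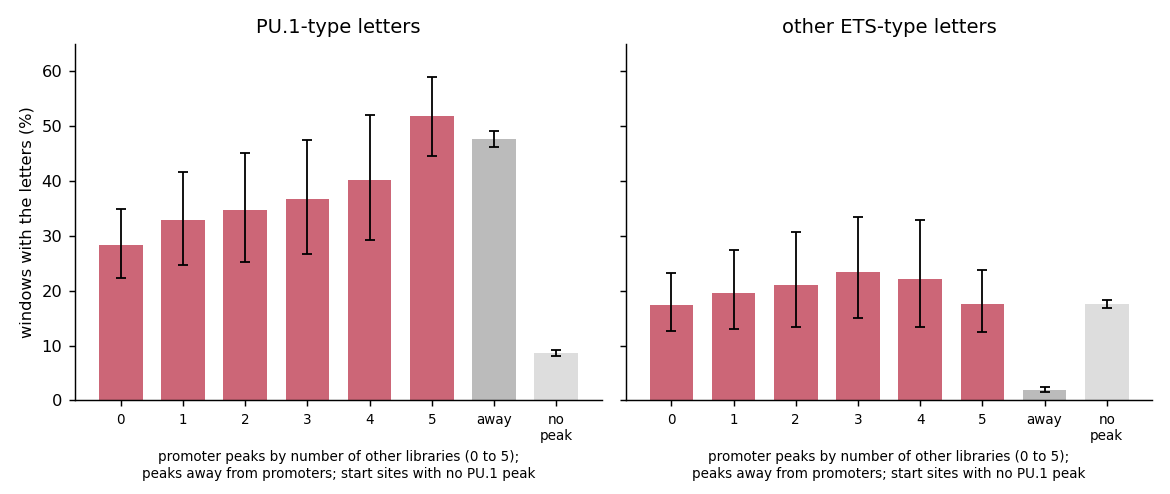
Share of windows of 100 bases on either side of a summit or start site (vertical axis, percent, with exact binomial 95% intervals) holding the PU.1-type letters (left panel) or the other ETS-type letters (right panel), for promoter peaks by the number of other PU.1 libraries that held them, for PU.1 peaks away from promoters, and for start sites with no PU.1 peak and H3K4me3 of at least 21.2. The PU.1-type share ran from 28.3% to 51.8% across the promoter peaks against 8.70% at start sites without a peak, whereas the other ETS-type share was 17.6% at those start sites.

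PU.1 promoter peaks sat on active promoters. The authors' H3K4me3 signal is a mean per base of the window, scaled to a common number of reads. Its median was 31.2 and 30.3 in the 2 OCR libraries over the 1053 windows with a peak, and 9.04 and 8.55 over the 30499 others. When windows were ranked by H3K4me3 and cut into 10 equal parts, those in the lowest part had a PU.1 peak in 0.158% of cases and those in the highest in 8.94%. With 4 equal parts, the highest held 57.5% of the windows with a peak and the lowest 1.42%. No test was run between windows, which share their libraries and in part their genes.

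**Figure D3:**
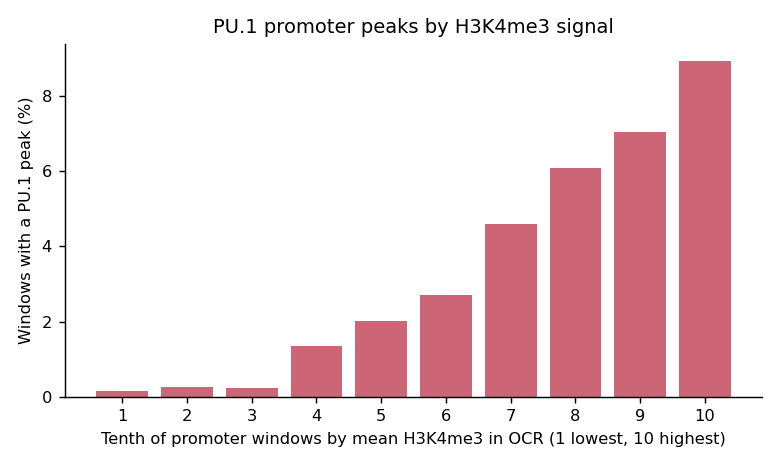
Percentage of promoter windows that a PU.1 peak of OCR replicate 1 overlapped (vertical axis), in 10 equal parts of all windows ranked on mean H3K4me3 in OCR HSCs (horizontal axis, 1 lowest). The share was 0.158% in part 1 and 8.94% in part 10.

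H3K27me3 went the other way, with medians of 0.158 and 0.163 at windows with a peak and 0.326 and 0.330 at the others. Of the windows with a peak, 16 (1.52%) were in the highest of 10 parts by H3K27me3. An ATAC peak overlapped 95.5% of the promoter peaks (95% CI 93.8 to 96.8), against 88.0% of the PU.1 peaks away from promoters. Median ATAC signal there was 27.7 to 30.0 CPM over the 6 libraries, where the median over all ATAC peaks was 2.60 to 2.71 CPM.

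Spi1 itself, Kdr and Bmpr1a had no PU.1 peak in their promoter windows in any of the 6 libraries. Kdr encodes the VEGF receptor Flk1 and Bmpr1a a BMP receptor. The nearest summit in OCR replicate 1 was 13566 bases from the Spi1 start, 2666 bases from the Kdr start and 563138 bases from the Bmpr1a start. The windows cover only the 750 bases downstream of a start. The study reports PU.1 binding upstream of the Spi1 promoter and PU.1 signal close to that of Kdr. H3K27me3 was 1.67 and 1.87 at Kdr and 2.61 and 3.40 at Bmpr1a, above the median of all windows, beside H3K4me3 of 26.2 and 21.2, and 26.1 and 21.1. At Spi1 the H3K27me3 values were 0.359 and 0.121.

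Ribosomal protein, ETS factor, leukocyte signalling and blood transcription factor genes had promoter peaks more often than genes in general, and the order of these lists was not tested. Of all genes with a window, 3.53% had a peak, and of those with H3K4me3 of at least 21.2, 7.37%. Cytosolic ribosomal protein genes had one in 22 of 88 (25.0%), ETS factors in 4 of 18 (22.2%), leukocyte signalling and cytoskeleton genes in 11 of 52 (21.2%), and stem cell and blood transcription factors in 6 of 30 (20.0%). Myeloid regulators and receptors had one in 3 of 36 (8.33%). The cell cycle lists lay near the background, 2 of 42 (4.76%) for S phase and 3 of 53 (5.66%) for G2/M, and none of 28 genes of class II presentation and the interferon response had one.

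The ETS factor genes with a peak were Spic, a close relative of PU.1 in red pulp macrophages, Fli1, Elf1 and Gabpa. Elf1 was held by all 6 libraries (9.30 to 11.6), Spic was missing from 1 OAL library, Gabpa was found in 1 other library, and Fli1 was found in OCR replicate 1 alone (6.78). Gabpa shares its start region with Atp5j, so the peak cannot be given to either.

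Among transcription factors, Runx1 and its partner Cbfb, Tal1 and its relative Lyl1, Gfi1b and Nfe2 had a peak. Runx and Tal1 family factors form stem cells, and Gfi1b and Nfe2 act in the erythroid and megakaryocytic lineages. Cbfb was found in all 6 libraries, with 13.2 and 10.3 in OCR, 11.2 and 8.14 in OAL, and 5.91 and 8.61 in OCRRF. Lyl1 was as well, with 12.9 and 11.3 in OCR, 9.69 and 9.27 in OAL, and 12.2 and 10.5 in OCRRF. Runx1 was missing from 1 OCRRF library, Nfe2 from 2 libraries, Gfi1b from 3, and Tal1 was found in OCR replicate 1 alone.

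Of the leukocyte signalling genes, several had a peak in all 6 libraries. Arhgdib, a GDP-dissociation inhibitor of small GTPases in blood cells, was one, with 20.2 and 17.1 in OCR, 18.7 and 17.8 in OAL, and 18.0 and 15.8 in OCRRF. Laptm5, a lysosomal membrane protein of leukocytes, had 18.4 and 18.6 in OCR, 15.0 and 17.3 in OAL, and 14.1 and 12.9 in OCRRF. Vav1, an exchange factor for Rac, had 13.9 and 15.8 in OCR, 11.3 and 12.1 in OAL, and 11.3 and 6.62 in OCRRF. At Laptm5 both OCRRF values were the lowest and both OCR values the highest, while at Vav1 OAL and OCRRF overlapped below OCR. These orders were not tested, and medians over the 205 regions held by every library were also highest in OCR and lowest in OCRRF. The tetraspanin gene Cd53, the kinase gene Syk, the phosphatase gene Inpp5d (SHIP1) and Nckap1l were also held by all 6 libraries, Hcls1 by 4, and Btk, Spn and Cd180 by OCR replicate 1 alone. Btk, a kinase of B cell receptor signalling, had 6.14 there.

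The myeloid genes with a peak were Irf2, the Fc receptor gene Fcgr2b and Ncf1, a subunit of the NADPH oxidase, each held by 4 libraries. Fcgr2b and Ncf1 had little H3K4me3, 1.57 and 0.726 averaged over both libraries. Those held by all 6 libraries among ribosomal protein genes included Rpl10 (14.8 and 12.8 in OCR, 12.5 and 10.8 in OAL, 10.3 and 13.9 in OCRRF), Rps12, Rps19, Rpl27 and Rps3. Rfc2, a clamp loader subunit, had the strongest peak among the S phase genes, with 22.3 and 19.0 in OCR, 16.5 and 16.1 in OAL, and 16.7 and 12.1 in OCRRF.

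Genes with a promoter peak were well expressed. Of the 887 genes, 869 were matched to the RNA table, and their median was 44.8 to 54.0 CPM in OCR, where the other genes with a window had medians of 1.93 to 2.83 CPM. Genes without a PU.1 peak but with H3K4me3 of at least 21.2 had medians of 45.8 to 53.9 CPM in the same libraries, so the level was that of active promoters in general.

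Lifelong restriction changed the RNA of genes with a promoter peak about as often as that of other expressed genes. In OCR against OAL, 41 of the 852 genes tested were higher and 35 lower at an adjusted p under 0.05 and a fold above 1.2 (edgeR's quasi-likelihood test, Benjamini-Hochberg adjusted over all genes). That is 8.92%, where 5.57% of all 27150 genes tested were called, 2.54% higher and 3.03% lower. Among genes averaging 5 CPM or more the shares were 9.68% and 11.1%, and among genes with comparable H3K4me3 and no peak 9.56% were called. The median log2 fold change was -0.02 for genes with a peak and 0.02 for all genes. Genes whose peak was found in no other library were called in 6.19% of cases, in 1 to 4 others in 10.6%, and in all 6 libraries in 8.37%. Of the 56 genes tested whose peak was held by both OCR libraries and no other diet, 1 was higher and 2 were lower.

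Genes of chromosome replication and segregation led those higher in OCR. Ckap2l, a spindle-associated protein, had 7.58, 9.85, 11.5 and 8.51 CPM in OAL and 36.6, 36.1, 23.8 and 29.4 CPM in OCR, with no overlap. Its log2 fold change was 1.77 (SE 0.14, adjusted p = 1.66e-09, edgeR). Dtl, which targets the licensing factor Cdt1 for destruction, had 47.5, 46.0, 40.0 and 39.0 CPM in OAL and 115, 136, 99.3 and 89.4 CPM in OCR, a log2 fold change of 1.37 (SE 0.11, adjusted p = 9.75e-10, edgeR). Ticrr, a replication initiation factor, Cdca5 (sororin), which protects sister chromatid cohesion, and the kinetochore gene Cenph rose by 1.30, 1.29 and 1.28 on the log2 scale, Rad54b, of homologous recombination, by 1.26, the kinesin gene Kif20b by 0.84 and the spindle checkpoint gene Mad2l1 by 0.75. Rfc2 rose by 0.32.

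These genes moved with the whole cell cycle lists, most of whose members have no PU.1 promoter peak. In OCR against OAL, 37 of 42 S phase genes and 48 of 53 G2/M genes were higher and none was lower. Whether more cells were in cycle or each cycling cell held more of these RNAs cannot be told apart in bulk libraries. Dtl shares its start region with Ints7, Cdca5 with Zfpl1 and Ckap2l with Gm14023, so a peak there cannot be given to 1 gene.

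Outside the cell cycle, Rnase6, an antimicrobial ribonuclease, had 12.0, 10.7, 12.1 and 11.8 CPM in OAL and 49.0, 27.6, 20.7 and 26.9 CPM in OCR. All OCR libraries were above all OAL libraries, with OCR replicate 1 the highest, and the log2 fold change was 1.43 (SE 0.17, adjusted p = 9.14e-07, edgeR). Tm6sf1 rose by 0.74. Of the leukocyte signalling genes with a peak, Syk (0.50) and Cd180 (0.58) rose and the other 9 did not pass. Of the transcription factors, Nfe2 fell by 0.27 and the other 5 did not pass. Cd180 (3.57 to 7.57 CPM in OAL and OCR, adjusted p = 0.0446, edgeR) and Nfe2 (fold 1.21, adjusted p = 0.0406, edgeR) passed only narrowly. No ETS, myeloid or ribosomal gene with a peak passed.

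Sult1a1, a cytosolic sulfotransferase, led the genes lower in OCR. It had 360, 313, 306 and 427 CPM in OAL and 138, 174, 188 and 191 CPM in OCR, with no overlap, a log2 fold change of -1.0 (SE 0.10, adjusted p = 1.08e-07, edgeR). Plekhg1, a guanine nucleotide exchange factor whose peak was held by all 6 libraries, had 17.6, 19.4, 22.2 and 19.1 CPM in OAL and 7.02, 11.5, 11.2 and 17.0 CPM in OCR, a log2 fold change of -0.72 (SE 0.17, adjusted p = 0.00751, edgeR). The phosphatase gene Acpp fell by 0.84, the arrestin-domain gene Arrdc3 by 0.83, the AP-1 subunit gene Junb by 0.60, the CBP/p300-binding regulator Cited2 by 0.55, the lymphoid GTPase gene Gimap6 by 0.52 and Irf2bpl by 0.51. Brd3os and Rbm3os fell by 0.51 and 0.50. They lie antisense to or beside Brd3 and Rbm3, and with no strand stated for the counting their reads cannot be told apart from those of the partner. Brd3os no longer passed without OAL replicate 2 (-0.46) or 4 (-0.49), and Rbm3os without OAL replicate 2 (-0.46) or 4 (-0.44) or OCR replicate 1 (-0.45) or 4 (-0.41). Arrdc3 fell by 0.50 without OAL replicate 1, its highest library, and DESeq2 did not call it. Rgs18, among the 10 strongest peaks, fell by 0.36 and Kifc1 rose by 1.42. Kifc1 was low in both groups, at 1.48 to 2.60 CPM in OAL and 4.03 to 5.95 CPM in OCR.

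**Figure D4:**
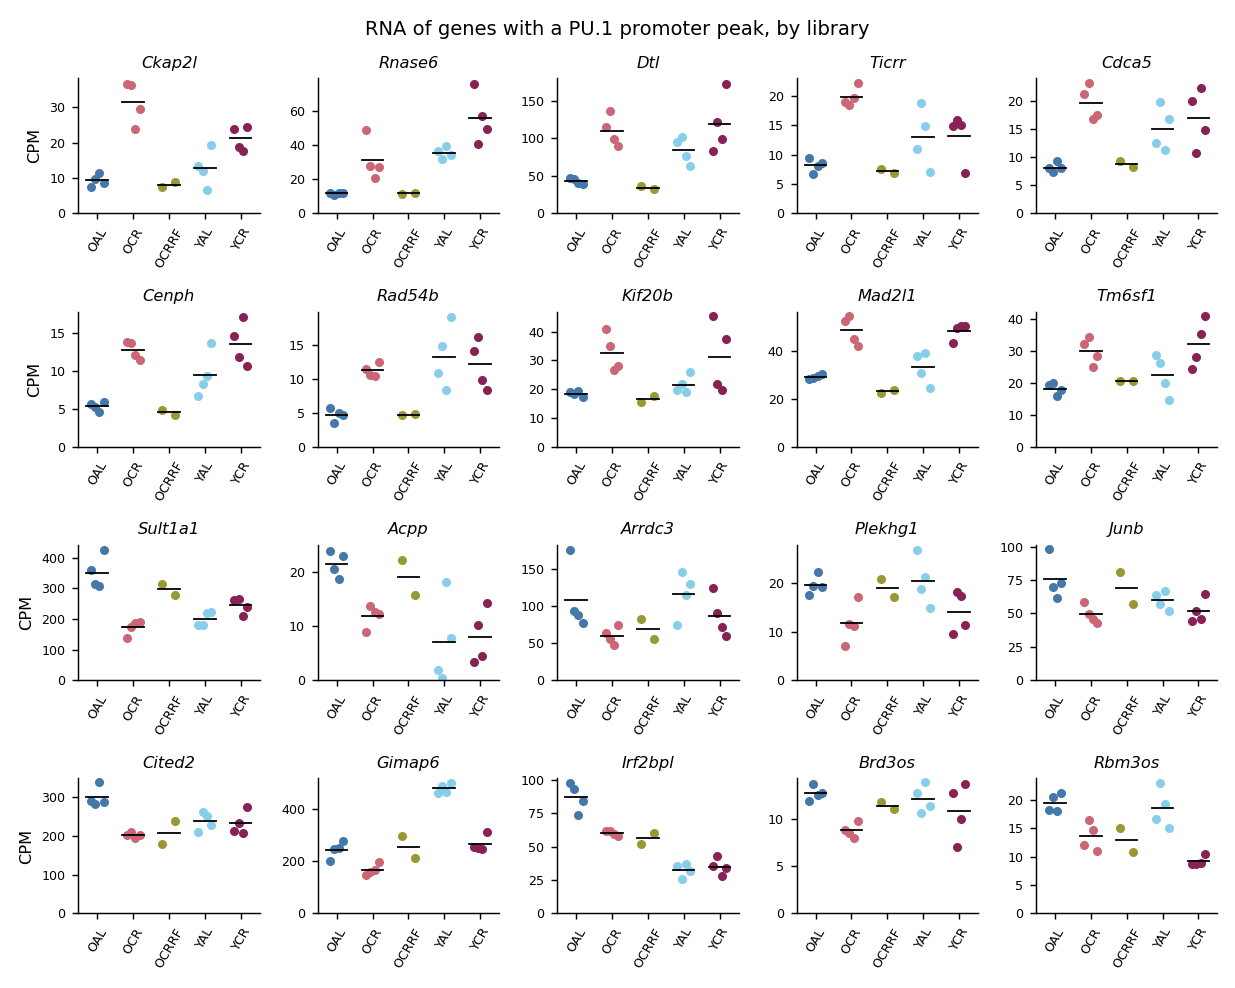
RNA level (vertical axes, CPM, each starting at 0) of the 10 genes highest and the 10 lowest in OCR against OAL among genes with a PU.1 promoter peak, in each library of the 5 diet groups. Points are libraries and lines are means; Ckap2l, for example, was at 7.58 to 11.5 in OAL, 23.8 to 36.6 in OCR and 7.42 to 8.84 in OCRRF.

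Erythroid markers also differed between these groups. Of the 6 tested, 4 were lower in OCR, their sum running from 34.1 to 233 CPM in OAL and from 27.7 to 66.7 CPM in OCR, and 4 of the 8 HSC markers were lower too. Their part in the values above was not tested.

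In edgeR, calls after refeeding were mostly lower in OCRRF. Their number depended on the processing, as described further on. Against OCR, 8 of 854 genes with a promoter peak were higher and 47 lower (6.44%), where 3.41% of all genes tested (0.694% higher and 2.71% lower), 8.31% of genes with at least 5 CPM and 7.66% of genes with comparable H3K4me3 and no peak were called. The median log2 fold change was -0.14 for genes with a peak, 0.11 for all genes and -0.14 for genes with at least 5 CPM. With 2 OCRRF libraries the count rested on single libraries, as it was 21 without OCRRF replicate 1, 27 without OCRRF replicate 2, 36 without OCR replicate 2, 90 without OCR replicate 4 and 127 without OCR replicate 3. Both diet comparisons use the same OCR libraries and are not independent, so values are given side by side.

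Ckap2l had 7.42 and 8.84 CPM in OCRRF, below every OCR library, a log2 fold change of -1.92 (SE 0.18, adjusted p = 2.73e-09, edgeR). Dtl had 36.5 and 32.2 CPM (-1.65, SE 0.15) and Rnase6 11.2 and 12.2 CPM (-1.38, SE 0.21). Cenph fell by 1.46, Ticrr by 1.43, Syk by 0.68, Rfc2 by 0.59, Gfi1b by 0.75 and Cbfb by 0.46. Over whole lists, 40 of 42 S phase and 48 of 53 G2/M genes were lower.

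The genes higher after refeeding included Sult1a1, with 314 and 279 CPM in OCRRF, above every OCR library, a log2 fold change of 0.81 (SE 0.12, adjusted p = 1.96e-05, edgeR). Plekhg1 (0.74), Acpp (0.71), Gimap6 (0.63), Arid5a (0.55) and Junb (0.52) were higher as well. Without OCRRF replicate 1, Plekhg1 (0.57), Acpp (0.43), Gimap6 (0.35) and Arid5a (0.38) no longer passed. Plekhg1 was also lost without OCR replicate 1 (0.53), 2 (0.73) or 3 (0.73), Acpp without OCR replicate 1 (0.57) and Arid5a without OCR replicate 2 (0.53). DESeq2 did not call Plekhg1 (0.67), nor edgeR Arid5a with DESeq2 size factors (0.48). Erythroid markers were higher in OCRRF for 3 of 6 and B cell markers for 2 of 5, and megakaryocyte markers were lower for 2 of 4. The sum over 1736 olfactory and vomeronasal receptor genes, which HSCs should not express, was 1161 and 1486 CPM in OCRRF and 561 to 1257 CPM in OCR. Their part in these differences was not tested.

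Few calls of chromatin accessibility were made between OCRRF and OCR, at the promoter peaks as over all ATAC peaks. Of 761 ATAC peaks at promoter peaks, 1 was higher in OCRRF and 0 were lower (0.131%), where 0.221% of 123372 ATAC peaks (0.13% higher and 0.0908% lower) were called at an adjusted p under 0.05, a fold above 1.5 and a mean log2 CPM above 1.5 (edgeR). At an unadjusted p under 0.05, 106 passed (13.9%, all ATAC peaks 11.7%), and DESeq2 called 1. The called peak was that of Sult1a1, with 12.7 and 12.9 CPM in OCRRF and 8.42, 9.73, 8.33 and 7.05 CPM in OCR, a log2 fold change of 0.60 (SE 0.15, adjusted p = 0.0456, edgeR). The call was lost without OCRRF replicate 1 or 2 or OCR replicate 1, 3 or 4. The PU.1 peak at this promoter was weak, with 6.43 and 7.22 in OCR and 7.24 in 1 OAL library, and it was called in neither OCRRF library.

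Short restriction in young mice changed few of these genes. In YCR against YAL, 2 of 824 were higher and 4 lower (0.728%), where 0.257% of all genes tested (0.0642% higher and 0.193% lower), 0.391% of those with at least 5 CPM and 0.34% of those with comparable H3K4me3 and no peak were called. Hsph1, a heat shock chaperone, had 61.4, 75.9, 68.1 and 69.3 CPM in YAL and 141, 159, 115 and 114 CPM in YCR, a log2 fold change of 0.97 (SE 0.13, adjusted p = 0.0170, edgeR). Gimap6 had 461, 486, 464 and 498 CPM in YAL and 255, 249, 246 and 312 CPM in YCR, a log2 fold change of -0.82 (SE 0.08, adjusted p = 0.00308, edgeR). Gfi1b rose by 0.79, while the pyruvate dehydrogenase kinase gene Pdk1, the cold-inducible RNA-binding gene Rbm3 and the pyruvate kinase gene Pkm fell by 0.81, 0.69 and 0.36. With 1 library left out at a time, between 1 and 4 genes were called. Gimap6 passed without any of the 8 libraries. Hsph1 was lost without any YAL library or YCR replicate 2 (0.86 to 1.01), Gfi1b without any YAL library or YCR replicate 1, 2 or 3 (0.68 to 0.87), and Rbm3 without any YAL library or YCR replicate 2, 3 or 4 (-0.74 to -0.64). Pdk1 was lost without any library but YAL replicate 4 (-0.86 to -0.72), and Pkm without YAL replicate 2 or 4 or YCR replicate 2 or 3 (-0.37 to -0.35).

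The response of Sult1a1 differed between lifelong restriction in old mice and 4 weeks of restriction in young mice. Age and length of restriction cannot be told apart in this comparison. It had 181, 181, 219 and 224 CPM in YAL and 261, 265, 211 and 240 CPM in YCR, a log2 fold change of 0.30 (SE 0.11, adjusted p = 0.381, edgeR). The old minus young difference of the log2 fold changes was -1.29 (SE 0.18, adjusted p = 0.00849, edgeR interaction term). It was the only 1 of 853 genes with a peak to pass (0.117%), where 12 of 28328 genes did (0.0424%).

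**Figure D5:**
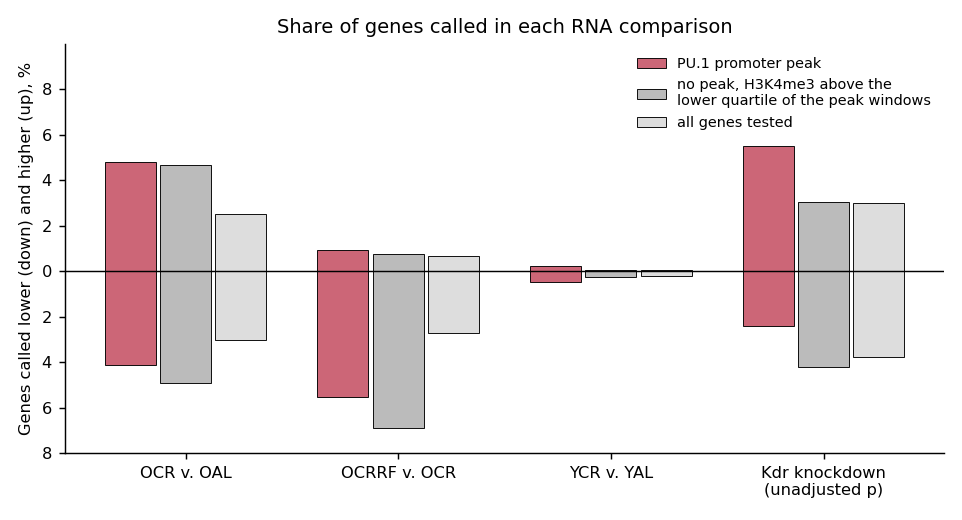
Percentage of genes called higher (above 0) and lower (below 0) in each RNA comparison, for genes with a PU.1 promoter peak, genes with no peak and H3K4me3 of at least 21.2, and all genes tested; the Kdr knockdown bars use unadjusted p-values, since 0 genes with a peak passed the adjusted test. Shares of genes with a peak were 4.81% higher and 4.11% lower for OCR against OAL, close to genes of comparable H3K4me3.

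In the Kdr knockdown the targeted gene was lower in every library. Kdr had 1.93, 2.21, 3.29 and 2.04 CPM in the knockdown libraries and 6.05 and 6.07 CPM in the scramble libraries, a log2 fold change of -1.35 (SE 0.25, unadjusted p = 0.00048, adjusted p = 0.247, edgeR), which passed with DESeq2 and, in edgeR, with no filter on low counts (-1.35 in both). No gene with a promoter peak passed in 833 tested, where 3 of 20098 genes did (0.0149%). DESeq2, which gave an adjusted p for 795 of them, called 21 higher and 3 lower (3.02%), where it called 2.01% of 15024 genes (0.992% higher and 1.02% lower). In edgeR, 1 gene passed without knockdown replicate 2.

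At an unadjusted p under 0.05 and a fold above 1.2, in edgeR, 46 genes with a peak were higher in the knockdown and 20 lower. That is 5.52% and 2.40%, where 2.99% and 3.78% of all genes were (6.76% in either direction), and 6.04% and 2.28% against 3.99% and 4.12% among genes with at least 5 CPM. Genes whose peak was held by all 6 PU.1 libraries had 17 higher and 2 lower of 200. Leaving out each library in turn gave 35 to 55 higher and 4 to 24 lower. None of these genes passed the adjustment, so the counts are a description. A two-sided exact test of 4 libraries against 2 cannot go below p = 0.0667 for a single gene.

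Cd53, with 106, 122, 99.9 and 141 CPM in the knockdown and 72.2 and 63.9 CPM in the scramble libraries, had a log2 fold change of 0.79 (SE 0.14, adjusted p = 0.247, edgeR). Fcgr2b had 8.29, 10.4, 4.79 and 8.95 CPM against 3.32 and 2.91 CPM (1.38, SE 0.31, adjusted p = 0.303, edgeR). Neither passed. Both genes had every knockdown library above both scramble libraries. The same held for 168 of 833 genes with a peak (20.2%), and the reverse for 58 (6.96%), so it does not set these 2 apart. The share over all genes tested is not given, so these counts show nothing particular to genes with a peak. Spi1 had 74.2, 92.9, 89.8 and 93.8 CPM against 74.0 and 70.4 CPM (0.28, SE 0.11, adjusted p = 0.502, edgeR). In OAL, OCR and OCRRF, Spi1 lay between 45.5 and 61.9 CPM and passed in no diet comparison in edgeR, while DESeq2 called it lower in OCRRF than in OCR (-0.37). The 8 HSC markers summed to 2714 to 3120 CPM in the knockdown and 3307 to 3499 CPM in the scramble libraries, and the 6 neutrophil markers to 673 to 1884 and 304 to 1923 CPM. Their part in these values was not tested.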

How the data were processed

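PU.1 peaks, histone signal, ATAC-seq and RNA-seq of mouse HSCs were analysed from the processed tables. The authors aligned PU.1 reads to mm10 with BWA, kept unique deduplicated reads and called peaks in each library with MACS2 at a false discovery rate under 0.05. The deposited peaks carry a score, a fold enrichment ratio and -log10 p and q values. The deposited H3K4me3 and H3K27me3 signal is a mean per base over 750 and 2000 bases of each window, scaled by the authors to a fixed number of reads. RNA and ATAC values are counts that the authors made per gene (STAR, featureCounts) or per peak in 131918 consensus ATAC peaks. Strand and multi-mapping settings are not given in the sources used here. The authors' own comparisons were not used.

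Peaks shared between libraries overlapped by at least 1 base. Window genes were matched to counts by symbol, 200 of them through RefSeq synonyms, and 455 were not matched. RNA and ATAC were tested with edgeR 4.0.16 (quasi-likelihood test, TMM scaling, filterByExpr, groups of each comparison only, Benjamini-Hochberg adjustment over all features), and calls needed an adjusted p under 0.05 and a fold above 1.2 (RNA) or 1.5 (ATAC). DESeq2 1.42.0 was an alternative. The edgeR step was tested on simulated data. Start-site sequence backgrounds, backgrounds of genes with at least 5 CPM and those without a peak were added after seeing the data.

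The promoter peaks, gene lists and tests were chosen with earlier results of these data known. Genes named are the members on the lists, the 10 peaks with the highest median enrichment in all 6 libraries, the 10 highest held by OCR libraries alone, Spi1, Kdr and Bmpr1a, and, among called genes averaging 5 CPM or more, those with the largest changes (10 in each direction for OCR against OAL, 5 for the others). Cd53 and Fcgr2b in the knockdown, Rgs18, Kifc1 and Junb after refeeding were picked out after their values were seen. No 2 libraries agreed within sampling noise. Some genes that these rules name are not reported here.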

Additional observations from a re-analysis of the deposited data

Results flagged for a closer look

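In groups of 4 libraries, 9 of 145 sets of values over 29 genes had 1 library far from the other 3 by Dixon's criterion, where chance alone gives about 1 in 20. In OAL, Arid5a was at 63.8 CPM in 1 library (others 40.0 to 41.8), Arrdc3 at 176 CPM (77.3 to 93.3) and Cited2 at 341 CPM (284 to 290). In the Kdr knockdown, Cited2 was at 220 CPM in 1 library (149 to 161). In YCR, Gimap6 was at 312 CPM (246 to 255), Mad2l1 at 43.4 CPM (49.7 to 50.2), Rbm3os at 10.5 CPM (8.63 to 8.81) and Ticrr at 6.83 CPM (14.9 to 15.9). Kdr was at 34.8 CPM in 1 YAL library (20.8 to 22.3). The response of Sult1a1 differed between lifelong restriction in old mice and short restriction in young mice by -1.29 on the log2 scale in edgeR's interaction test.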

How the results depend on the processing

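Counts of called genes with a promoter peak depended on the processing where groups were small. For OCR against OAL (76 genes), the count stayed within 1.5 times under another tool, scaling, filter, replicate block (72) or left-out library (58 to 84), and was 36 for genes whose window held the summit, where 385 were tested. For OCRRF against OCR (55) it was 136 with DESeq2, 170 with a replicate block, 24 for summit windows, 84 with the filter at 5 CPM, and 21 to 127 with 1 library left out. For YCR against YAL (6) it was 18 with DESeq2, 12 with no filter, 1 with a replicate block, 3 for summit windows and 1 to 4 with 1 library left out. For the Kdr knockdown (0) it was 24 with DESeq2, 5 with no filter, 66 at an unadjusted p, and 0 to 1 with 1 library left out. ATAC calls (1) were 2, both lower, with a replicate block, and 0 to 1 with 1 library left out. For most of these settings the share over all genes or ATAC peaks is not given. The counts therefore show how calls depend on the processing, and nothing particular to genes with a peak. The causes were not tested. Replicate numbers did not pair the libraries, since same-numbered deviations correlated between -0.119 and 0.145.

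Of the 797 peaks, 390 had their summit and 411 at least 50% of their length in windows. Presence in OAL replicate 1 was 53.3% at a -log10 q of at least 5, and with peaks taken from OCR replicate 2 presence was 63.0%, 57.3%, 59.3% and 47.3% in OAL 1, OCRRF 1, OAL 2 and OCRRF 2. AGGAAG was found in 57% of peaks, and GAGGAAG in 30.1% within 50 bases of the summit. Median H3K4me3 was 29.6 and H3K27me3 0.156 for summit windows, and 30.3 to 31.2 and 0.158 to 0.163 with 1 library each. Of the values of named genes, 576 kept direction and call, 55 lost the call, 3 gained it and 5 turned, all for Bmpr1a: 0.0483 with a replicate block in YCR against YAL, and, with 1 library left out, ranges of -0.0238 to 0.2069 (OCRRF against OCR), -0.4378 to 0.1911 (YCR against YAL) and -0.655 to 0.2719 (knockdown), where 0.2719 and 0.0285 were the values above 0.

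The PU.1 files hold no read counts, so binding was not tested between diets. The RNA files limit OCRRF and scramble comparisons to 2 libraries.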
